A study of Mus musculus with 2 samples.

Results

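Fibroblast growth factors (FGFs) and their receptors were followed in mouse lung fibroblasts sorted during bleomycin-induced lung fibrosis. The genes were 5 ligands (Fgf1, Fgf2, Fgf7, Fgf10 and Fgf18) and 5 receptors (Fgfr1, Fgfr2, Fgfr3, Fgfr4 and Fgfrl1), taken by symbol, and all 10 had an entry among the 16040 genes of the count table. The bleomycin group was 1 library of lung fibroblasts from 3 Col1a2-EGFP mice at day 14 after intratracheal bleomycin, a DNA-damaging drug given to mice as a model of pulmonary fibrosis. The saline group was 1 library of lung fibroblasts from 3 Col1a2-EGFP mice at day 14 after intratracheal saline. In both groups the sorted cells were lineage-negative and GFP-positive, so they were chosen by a reporter of the type I collagen gene Col1a2, and cells with an inactive reporter were not sampled. Expression was read out with the SOLiD SAGE kit (SAGE, serial analysis of gene expression), in which each transcript is represented by 1 short tag from close to its 3′ end.

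FGFs are secreted signals that bind receptor tyrosine kinases together with heparan sulphate, a sugar chain on cell surface and matrix proteins, and pass the signal through adaptor proteins to the RAS-ERK kinase cascade. In the developing mouse lung, Fgf10 from mesenchyme acts on Fgfr2 in epithelium to drive branching, Fgf7 acts on the same epithelial receptor form, and Fgfr3 and Fgfr4 act together in the formation of alveoli. Fgfrl1 binds ligands but lacks a tyrosine kinase domain. The epithelial and mesenchymal splice forms of Fgfr1, Fgfr2 and Fgfr3 differ in an internal exon, which tags near the 3′ end do not distinguish.

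The sequences that carry such counts are shown first, because they determine which gene a tag can name. The enzyme NlaIII, which anchors tags in this kit, cuts at CATG. In the GENCODE M21 transcript (GRCm38) that matches each gene's RefSeq record, the tag site was taken as the CATG nearest the 3′ end that left 27 bases. All of the sites shown lay in the 3′ untranslated region, and none of these 27-base stretches occurred in a transcript of another gene on either strand. The table lists counts by gene and not by tag, so these are predicted sites. Capitals mark the cut site.
Fgfr3: CATGgtttgtcagcccacactggcaga
Fgfr4: CATGgcatttttataaattattttttt
Fgfr1: CATGtaactgtcaaaatattatgaatg
Fgfr2: CATGttacctaaccaggaaaggaagac
Fgfrl1: CATGgctgcctggtctctgtaatttta
Fgf7: CATGctcacaatagatgtctcacagag
Fgf10: CATGctgaagtgtgttagccacgggta
Fgf18: CATGacaaaggactcacacaaggggac
The Fgfr4 site began 54 bases before the end of its transcript, and the Fgf7 site 502 bases before. In Fgfr3 and Fgfr2 a further CATG lay 5 and 19 bases from the annotated end, too close for a full tag, and the sites shown began 89 and 78 bases from it.

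The bleomycin library held 1099840 counts over 12918 genes and the saline library 1080798 counts over 12275 genes. Levels are given as CPM, the counts expected had the library, scaled by the trimmed mean of M values, held 1000000. One count was worth 0.922 CPM in the bleomycin library and 0.912 CPM in the saline library. A count of 0 allows up to 2.77 CPM in the bleomycin library and 2.74 CPM in the saline library, taken as 3 counts. Since a transcript gives 1 tag whatever its size, levels were not divided by transcript length. Col1a2 had 5613 counts in the bleomycin library against 1636 in the saline library, and Col1a1, the other type I collagen chain, had 7925 against 2714. Pdgfra and Pdgfrb, growth factor receptors of mesenchymal cells, had 323 and 27 counts in the bleomycin library and 509 and 30 counts in the saline library. The leukocyte gene Ptprc had 1 count in the bleomycin library and 0 in the saline library, and the epithelial gene Epcam had 0 counts and 1 count. Other cell types did leave counts: Sftpc of alveolar type 2 cells had 7 in the bleomycin library against 154 in the saline library, Scgb1a1 of airway cells 12 against 46, and Pecam1 of endothelium 3 against 53.

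The question was how the family's transcripts in sorted fibroblasts differed 14 days after bleomycin. Of 8 family members with enough counts to test, the receptors Fgfr3 and Fgfr4 were lower in the bleomycin library, by 5.71-fold and 3.16-fold, and 0 were higher. Fgfr1, the most abundant receptor, and the ligands Fgf10 and Fgf18 were not called, and neither were Fgfr2 and Fgfrl1. Fgf7 was 1.78-fold lower, under the required fold. A gene was tested when it had at least 10 counts over both libraries, and called when an exact binomial test of its counts gave a Benjamini-Hochberg adjusted p under 0.05 over all 9369 genes tested and the ratio reached 2. By this rule 8.52% of all tested genes were called lower and 8.08% higher. By the fold alone, 2 of the 8 members were past 2-fold lower, against 14.2% of tested genes, and 0 were past 2-fold higher, against 12.3%. Each group is 1 library, so the differences have no replicate check, and the test sets one library against the other, not bleomycin against saline in mice. Ranges in brackets are exact 95% intervals and cover counting error only. In such bulk RNA, fewer cells of a type and less RNA per cell cannot be told apart.

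**Figure D1:**
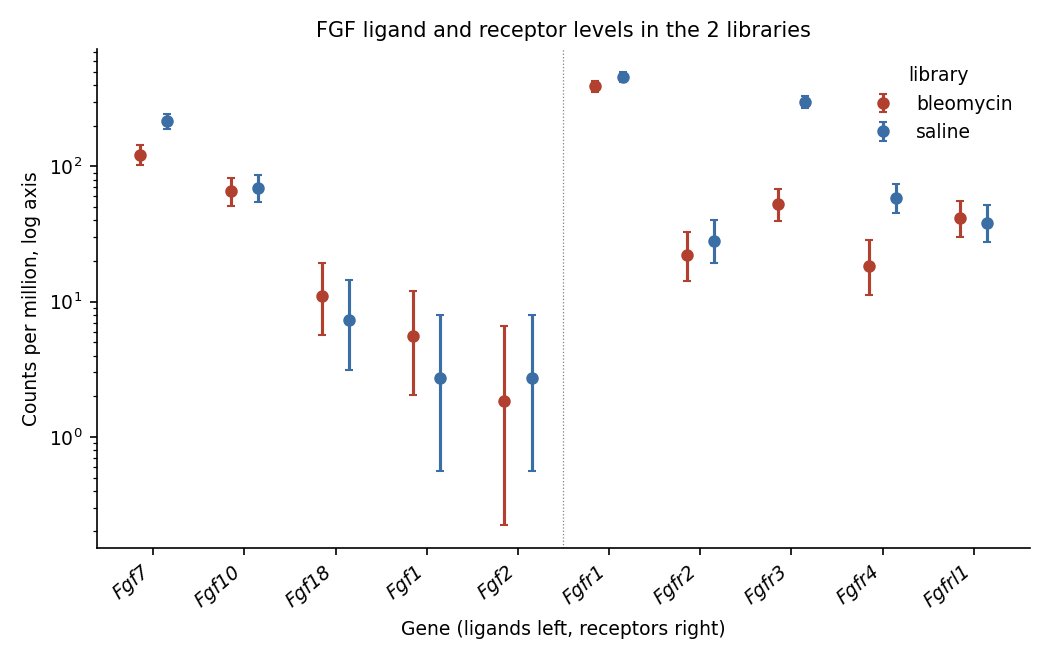
Level of each FGF ligand and receptor in CPM (log axis) in the bleomycin library (red) and the saline library (blue), with 1 library per group; bars are exact 95% Poisson intervals of the count. Fgfr3 lies at 52.6 CPM in bleomycin and 300.1 CPM in saline, Fgfr4 at 18.4 and 58.4, and Fgf7, which was not called, at 122 and 216.

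Fgfr3, a receptor tyrosine kinase known best for its restraint of cartilage growth, showed the largest change in the family. It had 57 counts in the bleomycin library, or 52.6 CPM (39.8 to 68.1), against 329 counts in the saline library, or 300.1 CPM (269 to 334). The 2 levels were far apart, with no overlap of their counting intervals. The ratio was 0.175 (0.130 to 0.233), which is 5.71-fold lower (4.30 to 7.70), with an adjusted p of 3.33e-45 by the exact binomial test. By level, Fgfr3 had rank 2514 among genes of the bleomycin library and rank 501 in the saline library. Of the 9369 genes tested, 178 had a lower log2 ratio than the −2.50 of Fgfr3.

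Fgfr4, which in other tissues such as liver is the receptor of endocrine FGFs, had 20 counts in the bleomycin library, or 18.4 CPM (11.3 to 28.5). The saline library held 64 counts, or 58.4 CPM (45.0 to 74.5). The bleomycin level was below the lower limit of the saline level. Fgfr4 was 3.16-fold lower (1.89 to 5.52), with an adjusted p of 1.76e-05 by the exact binomial test, and its interval reached under 2-fold. When a coefficient of variation of 0.4 between preparations was assumed in the exact test of edgeR, neither receptor was called. The adjusted p was then 0.338 for Fgfr3 and 1 for Fgfr4, within a range over all alternatives of 8.34e-47 to 0.338 and of 9.62e-06 to 1.

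The upstream sequences of these 2 genes are printed because they are the members called in the same direction. They are the 250 bases before each annotated start in the RefSeq promoter table (GRCm38.p6, plus strand), with capitals on the GC box GGGCGG or its reverse complement CCGCCC.
Fgfr3, chr5:33721474-33721723: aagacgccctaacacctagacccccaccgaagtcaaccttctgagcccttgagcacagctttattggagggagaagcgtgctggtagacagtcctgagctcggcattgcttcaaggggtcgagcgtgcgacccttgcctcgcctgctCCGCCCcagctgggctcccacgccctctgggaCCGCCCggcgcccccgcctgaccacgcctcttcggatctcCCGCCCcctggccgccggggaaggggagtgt
Fgfr3, chr5:33722056-33722305: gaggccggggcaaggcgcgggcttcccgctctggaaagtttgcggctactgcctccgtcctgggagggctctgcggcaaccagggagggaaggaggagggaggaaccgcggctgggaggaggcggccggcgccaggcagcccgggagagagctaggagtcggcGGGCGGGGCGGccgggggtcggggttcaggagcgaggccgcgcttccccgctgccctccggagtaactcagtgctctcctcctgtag
Fgfr4, chr13:55152568-55152817: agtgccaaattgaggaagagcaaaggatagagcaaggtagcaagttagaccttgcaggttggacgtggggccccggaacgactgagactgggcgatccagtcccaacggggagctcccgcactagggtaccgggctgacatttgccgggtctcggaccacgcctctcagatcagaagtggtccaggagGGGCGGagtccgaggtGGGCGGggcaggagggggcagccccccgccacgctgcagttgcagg
The first Fgfr3 start held 3 matches, the second 2 that overlap by 1 base, and Fgfr4 2. Their G and C content was 66.8%, 72.8% and 64%, against a median of 52.4% over all promoters of the table. The GC box was in 7 of the 9 windows found for 8 members and in 32.7% of all 32851 windows. Fgfr3 gave 2 of these 9 windows, and Fgf1 and Fgfr1 were without a window. The windows of Fgf2, Fgf10, Fgf18 and Fgfrl1 held it too, and those of Fgf7 and Fgfr2 did not. All member windows with the box were rich in G and C, at 61.2% to 77.2%, against 43.6% for Fgf7 and 44% for Fgfr2. The motif CCGGAAGT of ETS factors, or its reverse complement ACTTCCGG, was in 1 of the 9 windows, that of Fgfrl1, and in 2.88% of all windows. TATAAA, or its reverse complement TTTATA, was in 0 of the 9 and in 12.4% of all.

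The other receptors were not called. Fgfr1, a receptor kinase typical of mesenchymal cells, had 426 counts in the bleomycin library, or 393 CPM (356 to 432), against 503 counts in the saline library, or 459 CPM (420 to 501). These intervals overlap, and the ratio was 0.856 (0.751 to 0.976), with an adjusted p of 0.0664 by the exact binomial test. That p depended on the settings, ranging from 0.0223 with total counts to 1 over the alternatives, and was 0.0478 with DESeq2 size factors and 0.0469 with a minimum of 50 counts. Under each of them Fgfr1 was lower by far less than 2-fold. Fgfr2 had 24 counts in the bleomycin library against 31 in the saline library, a ratio of 0.783 (0.440 to 1.38). Fgfrl1 had 45 counts in the bleomycin library against 42 in the saline library, a ratio of 1.08 (0.696 to 1.69). The 2 libraries were nearly level for Fgfrl1, and at these depths a change of up to 1.69-fold upward would lie within its interval.

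**Figure D2:**
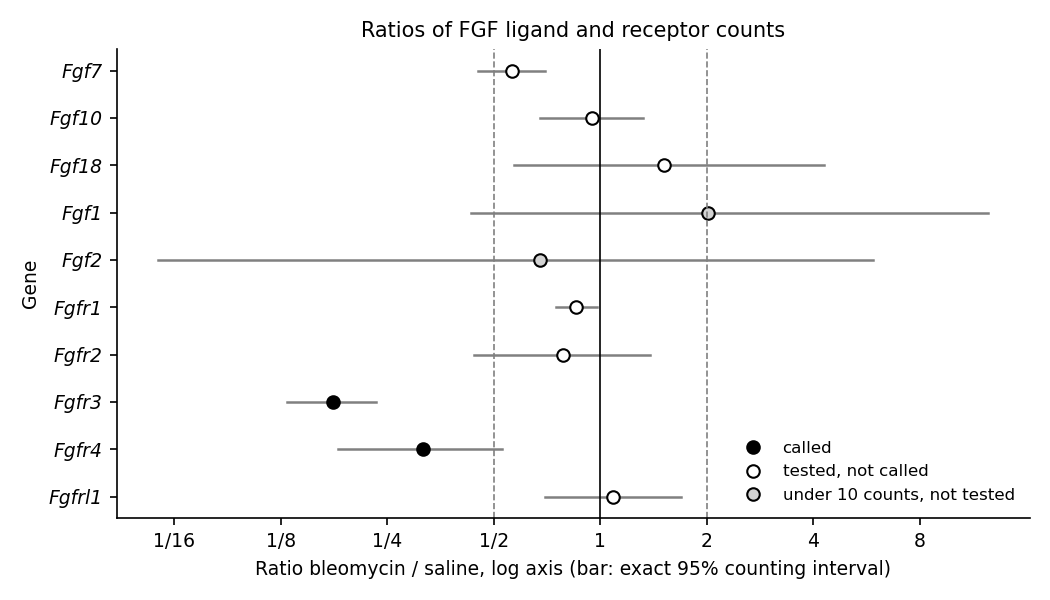
Ratio of bleomycin to saline counts for each gene (log axis) with exact 95% counting intervals; dashed lines mark 2-fold. The filled points of Fgfr3 (0.175) and Fgfr4 (0.316) are the called genes, and Fgf1 and Fgf2 (grey) had under 10 counts and were not tested.

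Because Fgfr3 and Fgfr4 were lower by more than Fgfr1, the make-up of the receptor counts differed between the libraries, a measure that does not depend on how libraries are scaled. Fgfr1 made up 74.5% (70.7 to 78.0) of 572 receptor counts in the bleomycin library and 51.9% (48.7 to 55.1) of 969 in the saline library. Fgfr3 made up 9.97% (7.64 to 12.7) in the bleomycin library and 34.0% (31.0 to 37.0) in the saline library. Fgfr3 was second to Fgfr1 in both libraries, by a narrow margin over Fgfrl1 in bleomycin and a wide one over Fgfr4 in saline. Fgfr4 held 3.50% (2.15 to 5.35) of receptor counts in the bleomycin library and 6.60% (5.12 to 8.36) in the saline library, intervals that overlap slightly. Fgfrl1 held 7.87% (5.80 to 10.4) against 4.33% (3.14 to 5.81), and Fgfr2 held 4.20% (2.71 to 6.18) against 3.20% (2.18 to 4.51). Summed over the 5 receptors, the bleomycin library was 1.68-fold lower (1.51 to 1.86), and without Fgfr3 it was 1.23-fold lower (1.09 to 1.38). The sum without Fgfr3 still held Fgfr4, which was called. Fgfr1 and Fgfr2, neither of them called, were together 1.17-fold lower (1.03 to 1.33). Intervals of shares are exact Clopper-Pearson 95% intervals.

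**Figure D3:**
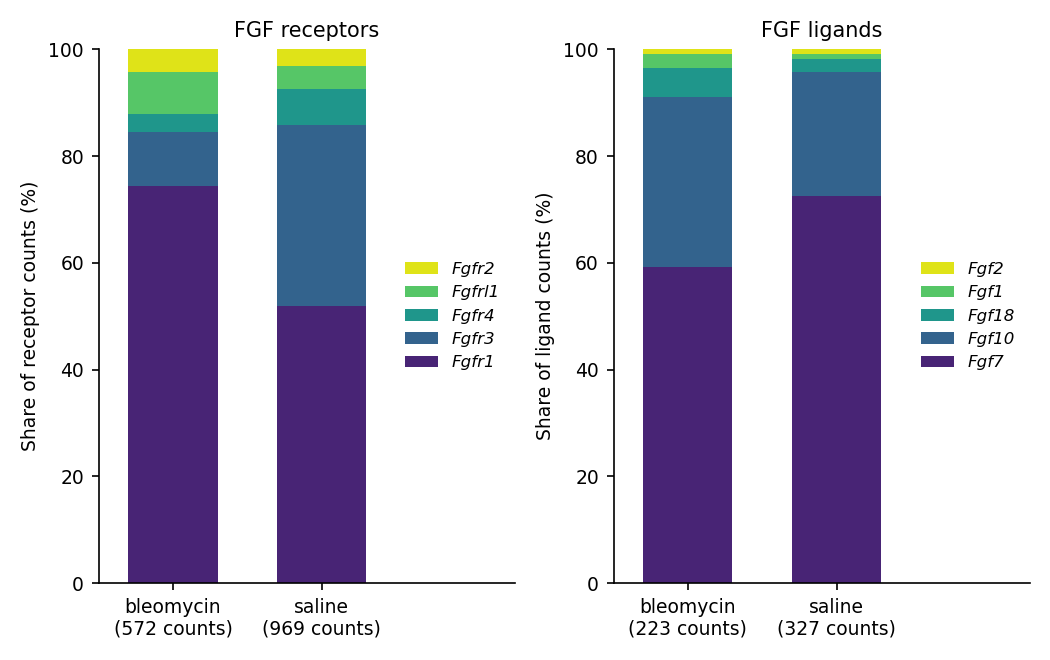
Share of receptor counts (left panel) and ligand counts (right panel) that each gene took, in percent, with the bleomycin library left of the saline library and the summed counts below. Fgfr3 takes 9.97% of receptor counts in bleomycin and 34.0% in saline, and Fgf7 takes 59.2% and 72.5% of ligand counts.

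Among ligands, Fgf7, the keratinocyte growth factor made by mesenchyme for epithelium, was the most abundant in both libraries. It had 132 counts in the bleomycin library, or 122 CPM (102 to 144), against 237 counts in the saline library, or 216 CPM (190 to 246). The bleomycin level was lower, and the intervals did not overlap. The ratio of 0.563 (0.452 to 0.700) had an adjusted p of 1.18e-06 by the exact binomial test and stayed short of 2-fold, so Fgf7 was not called. Fgf10, the closest relative of Fgf7 among these ligands, had 71 counts in the bleomycin library, or 65.5 CPM (51.1 to 82.6), against 76 counts in the saline library, or 69.3 CPM (54.6 to 86.8). Its levels were close, with a ratio of 0.945 (0.674 to 1.32). An interval that reaches 0.674 and 1.32 leaves room for a moderate difference in either direction.

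Fgf18, a ligand of mesenchymal receptor forms in the developing lung, had 12 counts in the bleomycin library against 8 in the saline library. Its ratio of 1.52 (0.570 to 4.28) had an interval that holds a 2-fold rise and no change alike. Fgf1 had 6 counts in the bleomycin library against 3 in the saline library, with a ratio of 2.02 (0.432 to 12.5). Fgf2 had 2 counts in the bleomycin library against 3 in the saline library, with a ratio of 0.674 (0.0563 to 5.89). Both lack a classical secretion signal, both had under 10 counts over the libraries and neither was tested, so these depths leave wide intervals. Fgf7 made up 59.2% (52.4 to 65.7) of 223 ligand counts in the bleomycin library and 72.5% (67.3 to 77.2) of 327 in the saline library. Fgf10 made up 31.8% (25.8 to 38.4) against 23.2% (18.8 to 28.2). The 5 ligands together were 1.45-fold lower in the bleomycin library (1.22 to 1.73). Fgf7 carried this gap, with 132 of the summed counts in bleomycin and 237 in saline. Fgf10 was nearly level at 71 against 76, Fgf18 and Fgf1 had more counts in bleomycin, and Fgf2 had 2 against 3.

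In order of level, the bleomycin library ran from Fgfr1 through Fgf7, Fgf10, Fgfr3, Fgfrl1, Fgfr2, Fgfr4, Fgf18 and Fgf1 to Fgf2. The saline library ran from Fgfr1 through Fgfr3, Fgf7, Fgf10, Fgfr4, Fgfrl1, Fgfr2 and Fgf18 to Fgf1 and Fgf2, which were level. In the bleomycin library, neighbours from Fgf10 downward had overlapping counting intervals, and in the saline library so did neighbours from Fgf10 downward except Fgfr2 and Fgf18. The median log2 ratio of the 8 tested members was −0.28, against 0.02 over all tested genes.

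Other ligands of the family were near the limit of detection. The table held 5 more, namely Fgf9, Fgf12, Fgf16, Fgf21 and Fgf23, with a sum of 4 counts in the bleomycin library and 6 in the saline library, and 0 of the 5 could be tested. Fgf12 had the most, with 1 count in the bleomycin library against 4 in the saline library. Among 5 tested co-receptors and binding proteins, 1 was called higher and 0 lower, with a median log2 ratio of −0.24. This called share of 20% was near the 16.6% of all tested genes. Ncam1, a neural cell adhesion molecule that can bind FGF receptors, rose to 19 counts in the bleomycin library against 5 in the saline library, a ratio of 3.84 (1.39 to 13.2). The most abundant were Nrp1, a co-receptor of several growth factors, with 366 counts in the bleomycin library against 274 in the saline library, and Flrt2, a membrane protein of a family that binds FGF receptors, with 60 against 72. Neither was called. Kl, the klotho co-receptor of an endocrine FGF, had 1 count in the bleomycin library and 7 in the saline library and was not tested.

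Heparan sulphate genes, whose products present FGFs to their receptors, were called in both directions. Of 10 tested core proteins, 3 were called higher and 0 lower, with a median log2 ratio of −0.22. The called share was 30%, against 16.6% of all tested genes. Sdc1, the syndecan typical of epithelium, had 136 counts in the bleomycin library and 6 in the saline library, a ratio of 22.9 (10.3 to 63.6). Gpc4, a glypican, had 30 counts against 6 and a ratio of 5.06 (2.07 to 14.9), and Sdc3, another syndecan, had 88 against 37 and a ratio of 2.41 (1.62 to 3.63). The most abundant core proteins were lower but short of 2-fold. Gpc3, which is also on the list of alveolar fibroblast genes, had 689 counts in the bleomycin library against 1124 in the saline library, and Sdc4 had 670 against 868.

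Of 13 tested genes that build or edit heparan sulphate, 4 were called higher and 2 lower, with a median log2 ratio of 0.93. The called share was 46.2%, against 16.6% of all tested genes. Ext1 and Ext2 encode the polymerase that extends the chain. Ext2 had 61 counts in the bleomycin library against 17 in the saline library, a ratio of 3.63 (2.09 to 6.63), and Ext1 had 43 against 14, a ratio of 3.11 (1.67 to 6.15). Hs2st1 and Hs6st1 add the sulphates that FGF and receptor binding depends on. Hs2st1 had 36 counts in the bleomycin library against 9 in the saline library, a ratio of 4.05 (1.91 to 9.55), and Hs6st1 had 46 against 21, a ratio of 2.22 (1.30 to 3.91). The 2 genes that fell were Sulf2, which removes sulphates outside the cell, with 30 counts against 72, and Hs3st3a1, a further sulphotransferase, with 4 against 16. Sulf1, the relative of Sulf2 and the most abundant gene of the list, had 213 counts in the bleomycin library against 118 in the saline library, a ratio of 1.83 (1.45 to 2.31) short of 2-fold, and Extl3, which helps to start the chain, had 85 against 45 and was not called.

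Adaptors and the RAS-ERK cascade gave few calls. Of 22 tested genes, 1 was called higher and 1 lower, with a median log2 ratio of 0.12. The called share was 9.09%, against 16.6% of all tested genes. Crk, an adaptor, had 143 counts in the bleomycin library against 70 in the saline library and a ratio of 2.07 (1.54 to 2.79), just past 2-fold. Gab1, a docking protein downstream of the FGF receptor adaptor Frs2, had 10 counts against 27 and was 2.67-fold lower (1.25 to 6.18). The kinase gene Mapk3 had 287 counts in the bleomycin library against 279 in the saline library, and Akt1 had 182 against 112, and neither was called. Frs2 itself had 5 counts against 3 and was not tested.

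**Figure D4:**
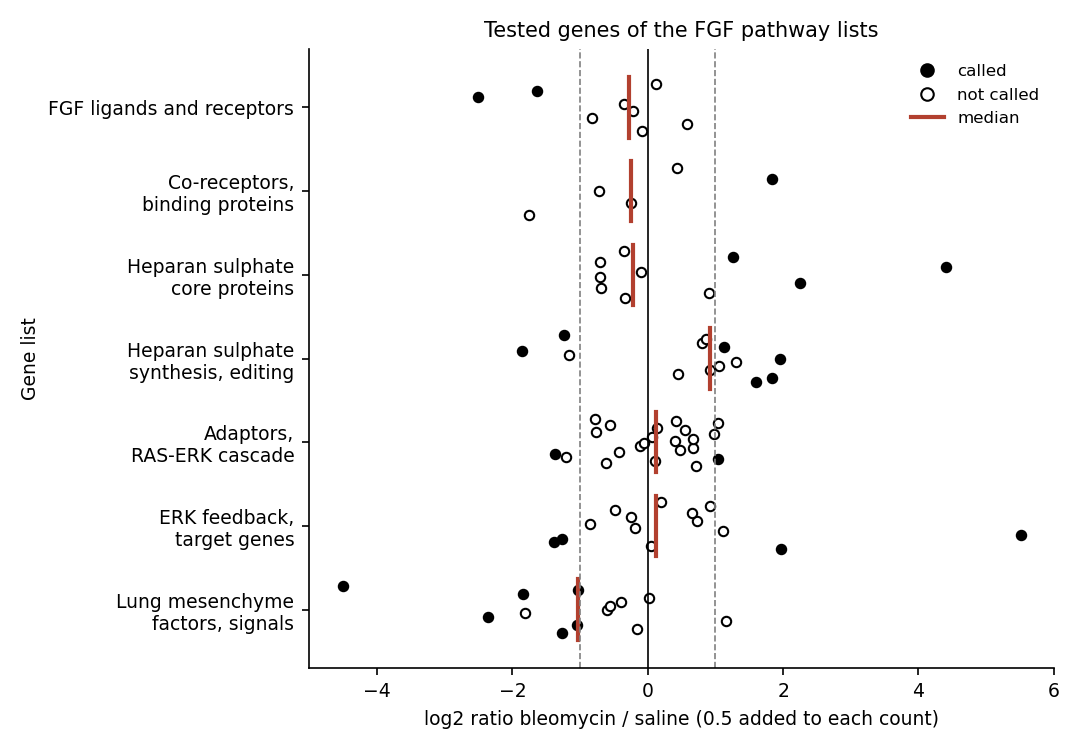
Log2 ratio of bleomycin to saline (0.5 added to each count) for every tested gene of the FGF family and 6 pathway lists; filled points were called, red bars are medians and dashed lines mark 2-fold. Heparan sulphate synthesis genes have a median of 0.93 and the lung mesenchyme list one of −1.04, while the family's own median is −0.28.

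Transcripts that ERK signalling induces were called in both directions. Of 14 tested feedback inhibitors and target genes, 2 were called higher and 2 lower, with a median log2 ratio of 0.12. The called share was 28.6%, against 16.6% of all tested genes. Etv4, an ETS transcription factor induced by FGF signalling, had 22 counts in the bleomycin library and 0 in the saline library, a ratio whose exact lower limit is 5.54. With saline set to 3 counts, the floor for a count of 0, the ratio is 7.42 before the counting error of the bleomycin library. Its relative Etv5 had 22 counts in the bleomycin library against 10 in the saline library, a ratio of 2.22 (1.01 to 5.26) with an adjusted p of 0.102 by the exact binomial test, and was not called. The third factor of this group, Etv1, had 12 counts in the bleomycin library against 30 in the saline library and was 2.47-fold lower (1.23 to 5.30). Ccnd1, cyclin D1, had 87 counts against 22 and a ratio of 4.0 (2.48 to 6.71). Egr1, the most abundant gene of the list, had 3079 counts in the bleomycin library against 8106 in the saline library and was 2.60-fold lower (2.50 to 2.71).

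None of the tested feedback inhibitors of the sprouty, spred and dual-specificity phosphatase families was called. Spry2 had 109 counts in the bleomycin library against 58 in the saline library, a ratio of 1.90 (1.37 to 2.66). Spry1, the second most abundant gene of the list, had 177 against 250, a ratio of 0.716 (0.587 to 0.872). Dusp6, an ERK phosphatase, had 85 against 83. These 3 inhibitors stood above, below and near level, each by under 2-fold. Immediate early and dissociation-induced genes, a list that holds Egr1 too, summed to 21130 counts in the bleomycin library and 41140 in the saline library. Of these 20 genes, 7 were called lower and 0 higher, against 8.52% and 8.08% of all tested genes. Markers of the cell cycle summed to 474 counts in the bleomycin library and 204 in the saline library, with 9 of 10 tested called higher. Pcna, a DNA replication factor that was not called, gave 183 of these counts in bleomycin and 193 in saline. The part of either in the values of Egr1 and Ccnd1 was not tested.

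Transcription factors and signals that act around Fgf10 in lung mesenchyme were called lower in 6 of 13 tested genes and higher in 0, with a median log2 ratio of −1.04. The called share was 46.2%, against 16.6% of all tested genes. Hhip, an inhibitor of hedgehog signalling, had 51 counts in the bleomycin library against 267 in the saline library and was 5.18-fold lower (3.82 to 7.13). Tcf21, a factor of lung mesenchyme, had 93 counts against 338 and was 3.59-fold lower (2.85 to 4.57). Tcf21 is also on the list of alveolar fibroblast markers, and Hhip on that of smooth muscle. Bmp4 was 2.43-fold lower (1.72 to 3.48), with 48 counts in the bleomycin library against 118 in the saline library. Wnt2 and Wnt2b, ligands that specify the lung in the mouse embryo, had 19 and 0 counts in the bleomycin library and 40 and 11 counts in the saline library, and both were called. Gli2, an effector of hedgehog signalling, was called with 17 counts against 36. Tbx4, a factor needed for Fgf10 expression in the lung bud, had 219 counts in the bleomycin library against 291 in the saline library, a ratio of 0.761 (0.636 to 0.910), and was not called. Its partner Tbx5 had 46 counts in each library. Tbx4 was thus lower by less than 2-fold, with an adjusted p of 0.0109 by the exact binomial test, and Tbx5 was level.

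Markers of other cells differed between the libraries as well, and their part in the fall of Fgfr3 and Fgfr4 was not tested. Endothelial markers summed to 34 counts in the bleomycin library and 584 in the saline library, with 9 of 9 tested genes called lower and 3 of 12 at 0 in bleomycin. Among all tested genes 8.52% were called lower. Pecam1 and Cdh5, adhesion molecules of endothelium, had 3 and 1 counts in the bleomycin library and 53 and 11 counts in the saline library. Alveolar type 2 markers summed to 10 counts in the bleomycin library and 165 in the saline library, and Sftpc, a surfactant protein, gave 7 and 154 of them. Of the 7 genes on that list, 5 were at 0 in bleomycin and 2 in saline. Airway markers summed to 171 counts against 587, of which Tppp3 gave 153 and 535, and 3 of 8 were at 0 in bleomycin and 4 in saline. On the same list Scgb1a1 had 12 counts in bleomycin and 46 in saline, Foxj1 had 3 and 0, and Epcam 0 and 1. Which cells gave the Tppp3 counts was not tested.

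Lists of fibroblast states differed in both directions, beside 8.08% of all tested genes called higher and 8.52% called lower. Alveolar fibroblast markers summed to 4716 counts in the bleomycin library and 16871 in the saline library, with 6 of 11 called lower, and adventitial markers to 6410 and 29932, with 10 of 12 called lower. Single genes carried much of both sums. Inmt gave 1197 of the alveolar counts in bleomycin and 11323 in saline, and Gsn gave 2548 and 19346 of the adventitial counts. Markers of fibrosis-associated fibroblasts summed to 16062 counts in the bleomycin library and 950 in the saline library, with 11 of 12 called higher. Spp1 alone gave 12155 of these counts in bleomycin and 57 in saline. Smooth muscle markers summed to 2804 counts against 2099, with 1 of 9 tested called higher and 4 lower, and Acta2, smooth muscle actin, had 609 against 328. Acta2 is on the fibrosis-associated list too. Pericyte markers summed to 155 counts against 268, with 3 of 8 tested called lower. Alveolar type 1 markers summed to 106 counts against 119, with 1 of 4 tested called lower. Pdpn, which was not called, gave 95 of these counts in bleomycin and 84 in saline. Clic5, the type 1 gene called lower, had 0 and 13. Mesothelial markers, with 150 counts against 172, had 0 of 2 tested genes called, and Msln had 2 counts against 3. Upk1b gave 131 of the mesothelial counts in bleomycin and 154 in saline. Leukocyte markers summed to 5 counts in the bleomycin library and 8 in the saline library, none of them with enough counts to test. Of the fibroblast identity genes, 2 of 8 were called higher and 1 lower.

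**Figure D5:**
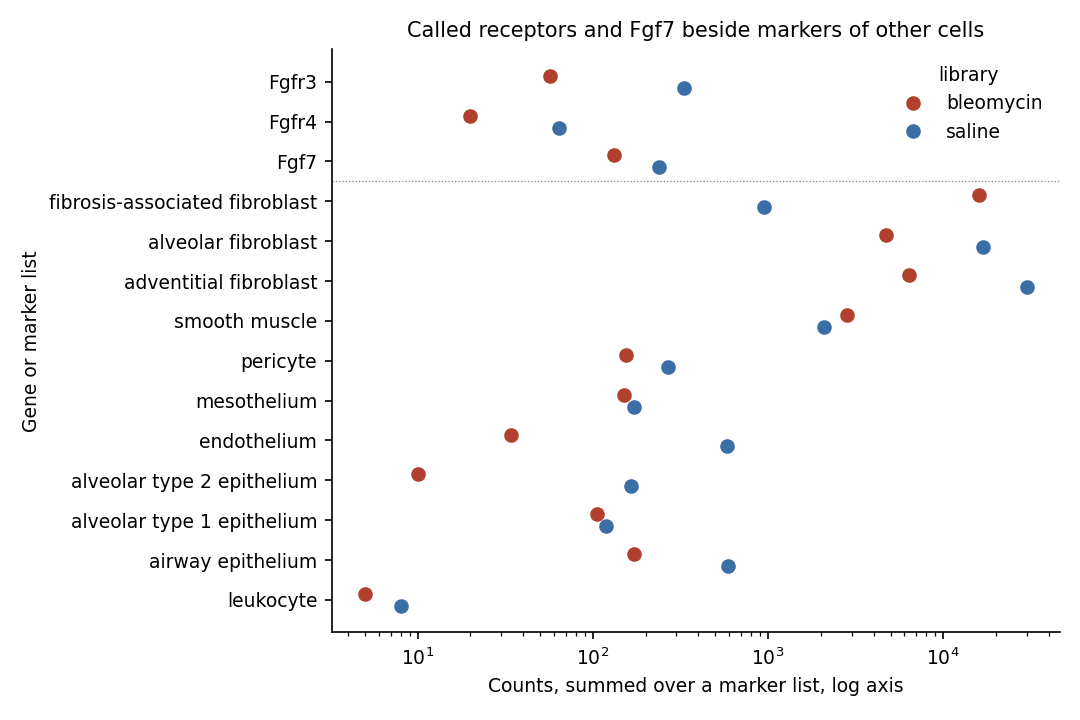
Counts of Fgfr3, Fgfr4 and Fgf7 (top) and counts summed over marker lists of fibroblast states and other cells (log axis) in the bleomycin (red) and saline (blue) libraries. Endothelial markers sum to 34 in bleomycin and 584 in saline, and alveolar fibroblast markers to 4716 and 16871, beside 57 and 329 counts of Fgfr3. Of the alveolar fibroblast counts, Inmt alone gives 1197 in bleomycin and 11323 in saline.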

How the data were processed

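The deposited table holds whole-number tag counts per gene and library. No label states whether the authors scaled them, and the intervals and tests given take them as raw. Per the submitters' processing notes, BWA 0.6.2 and mm9 were used, with no role given. How tags were assigned to genes and strands is unstated. Each library stands for 3 mice, so spread between mice was not measured. After 1 blank line was left out, 16040 genes remained. Symbols turned into dates were recovered for 21 genes, and 33 entries named by a phrase were matched to no list.

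Libraries were scaled by TMM in edgeR 4.0.16 (R 4.3.3). The quasi-likelihood test of edgeR cannot be fitted with 1 library per group, so a two-sided exact binomial test (Python 3.11.15, scipy 1.17.1) was used. Its code was tried on simulated counts with counting error only, which cannot test it against spread between preparations. Log2 ratios and the 2-fold rule have 0.5 added to both counts, and printed ratios do not. Alternatives were total counts, DESeq2 1.42.0 size factors, no minimum or 50 counts, a prior count of 5, a ratio of 3, Bonferroni adjustment, and edgeR's exact test with an assumed coefficient of variation of 0.2 or 0.4.

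The text names all 10 family members, the called genes and the 2 most abundant genes of each pathway list, and defining cell markers; other markers are given as sums. Frs2, Kl, Etv5, Spry2, Dusp6, Fgf12, Pcna and Tbx5 are named outside this rule, chosen after their values were seen. The same holds for the markers Inmt, Gsn, Spp1, Pdpn, Clic5, Upk1b and Foxj1. Members and lists were chosen with earlier results of these data known. List genes with no entry in the table were not analysed here. Promoter windows come from RefSeq (GRCm38.p6).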

Additional observations from a re-analysis of the deposited data

How the results depend on the processing

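Each alternative changed 1 choice, except that edgeR's exact test replaced the binomial test and added an assumed spread together. Fgfr3 and Fgfr4 stayed called lower under 8 of 9 alternatives, and the log2 ratio of Fgfr3 ranged from −2.54 with total counts to −2.41 with a prior count of 5. Under an assumed coefficient of variation of 0.4 in edgeR's exact test, 0 members were called. The log2 ratios were then still −2.50 for Fgfr3 and −1.64 for Fgfr4. With the same test at 0.2 both stayed called, Fgfr3 by a wide margin and Fgfr4 only narrowly. No other tested member changed direction or call. The adjusted p of Fgf7 was 0.332 with 0.2, and that of Fgfr1 was 0.0223 with total counts, 0.0478 with DESeq2 size factors and 0.0469 with a minimum of 50 counts, against 0.0664. Over all genes, called counts were 396 higher and 484 lower with a minimum of 50 counts, 443 and 445 with a ratio of at least 3, and 288 and 333 with Bonferroni adjustment. They were 274 higher and 333 lower with a coefficient of variation of 0.2, and 21 and 8 with 0.4, against 757 and 798. The other alternatives gave 675 to 745 higher and 723 to 927 lower. Co-receptors had 0 calls with a minimum of 50 counts, Bonferroni adjustment, or either coefficient of variation, against 1. Core proteins had 2 calls with a minimum of 50 counts, a ratio of at least 3, Bonferroni adjustment or 0.2, against 3. They had 1 call with 0.4. Heparan sulphate synthesis genes had 5 calls with no minimum count or a prior count of 5, against 6. They had 4 with a minimum of 50 counts or a ratio of at least 3. With Bonferroni adjustment they had 1, with 0.2 they had 2 and with 0.4 they had 0. Adaptors had 1 call with a minimum of 50 counts, a prior count of 5 or Bonferroni adjustment, and 0 with a ratio of at least 3 or either coefficient of variation, against 2. Feedback and target genes had 2 calls with a minimum of 50 counts or a ratio of at least 3, against 4. They had 3 with Bonferroni adjustment or 0.2, and 0 with 0.4. Lung mesenchyme genes had 5 calls with no minimum count or a minimum of 50, and 4 with a prior count of 5, against 6. They had 3 with a ratio of at least 3, Bonferroni adjustment or 0.2, and 0 with 0.4. The cause of the changes under other settings was not tested. Of 22 called pathway genes, 12 lost their call with 0.2 and 21 with 0.4. Without Fgfrl1, Fgfr1 held 80.8% of receptor counts in the bleomycin library, above its interval, and the other receptor shares stayed within theirs. The ligand shares stayed within their intervals when Fgf9, Fgf12, Fgf16, Fgf21 and Fgf23 were counted too. No paired analysis was possible because each group has 1 library, and for the same reason no replicate could be left out. The median log2 ratio of all genes moved by less than 0.1 under each scaling.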
